A study of Rattus norvegicus with 64 samples.

Results

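Lung libraries of these rats differed widely in how much heart muscle transcript they held, and the 35 libraries at the ends of that range are described here. For all 64 libraries, the level of Myh6, the alpha heavy chain of cardiac myosin, was taken as CPM, its count times 1000000 divided by the total count of the library. Libraries with at least 100 CPM of Myh6 were called rich and libraries under 10 CPM poor, which gave 21 rich and 14 poor libraries and left 29 between them. Because Myh6 chose the classes, its own values, and those of heart muscle genes that travel with it, are given as a description with no test. Genes of other cell types were tested.

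In rats and mice, heart muscle does not end at the heart: a sleeve of cardiac muscle cells runs from the left atrium along the pulmonary veins into the lung. These cells build cross-striated sarcomeres like those of the atrium, and the sleeve is known as a source of ectopic beats. A piece of lung can hold more or fewer veins with this sleeve, and it can also hold more or less conducting airway or pleural surface, the last covered by mesothelium.

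The animals were male Sprague-Dawley rats, an outbred strain, that breathed filtered air or fracking sand dust in a whole-body chamber for 6 hours on each of 4 days. Dust was given at 10 mg/m3 in one study and at 30 mg/m3 in another, each with its own air rats, and lungs were taken 1, 7 or 27 days later. Total RNA from a piece of lung was depleted of ribosomal RNA and sequenced, and each library is taken to be 1 rat from the number in its title. In bulk tissue, fewer cells of a type and less RNA per cell cannot be told apart.

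Rich and poor libraries occurred in air and in dust rats. Among the 32 air libraries 12 were rich and 8 poor, and among the 32 dust libraries 9 were rich and 6 poor. The 10 mg/m3 study held 7 rich and 10 poor libraries of 28, and the 30 mg/m3 study 14 rich and 4 poor of 36. The groups were uneven within days. All 6 air libraries of day 7 in the 30 mg/m3 study were rich, at 120 to 408 CPM of Myh6, while the dust libraries of that day held 0 rich and 2 poor, at 9.20 to 74.2 CPM. In the 10 mg/m3 study at day 7 the air libraries held 4 poor and 1 rich, and the dust libraries 1 poor and 3 rich. By day over both studies, 4 rich and 4 poor libraries came from day 1, 10 and 7 from day 7, and 7 and 3 from day 27. Study and day were set as terms of the fit of rich against poor libraries, and treatment was not. These terms do not take up the unevenness of air and dust within a day. The main fit called 269 genes, and 268 were called with treatment added. With the 12 groups of study, day and treatment as covariates 203 were called, and 170 calls were shared with the main fit in the same direction.

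Myh6 itself ran from 0 to 9.34 CPM in the poor libraries, with a median of 0.52 CPM, and from 101 to 423 CPM in the rich, with a median of 144 CPM. At 0 counts, which 3 poor libraries had, a level of up to 0.402 CPM is allowed by counting error alone. The cuts fell in a continuous range. The rich library nearest its limit was dust rat 96 of day 27 in the 30 mg/m3 study, at 101 CPM, and the nearest library left out was air rat 81 of that study, at 98.6 CPM. On the lower side, dust rat 79 lay just inside at 9.34 CPM and dust rat 62 just outside at 14.1 CPM. The plot of Myh6 by library shows both limits.

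**Figure D1:**
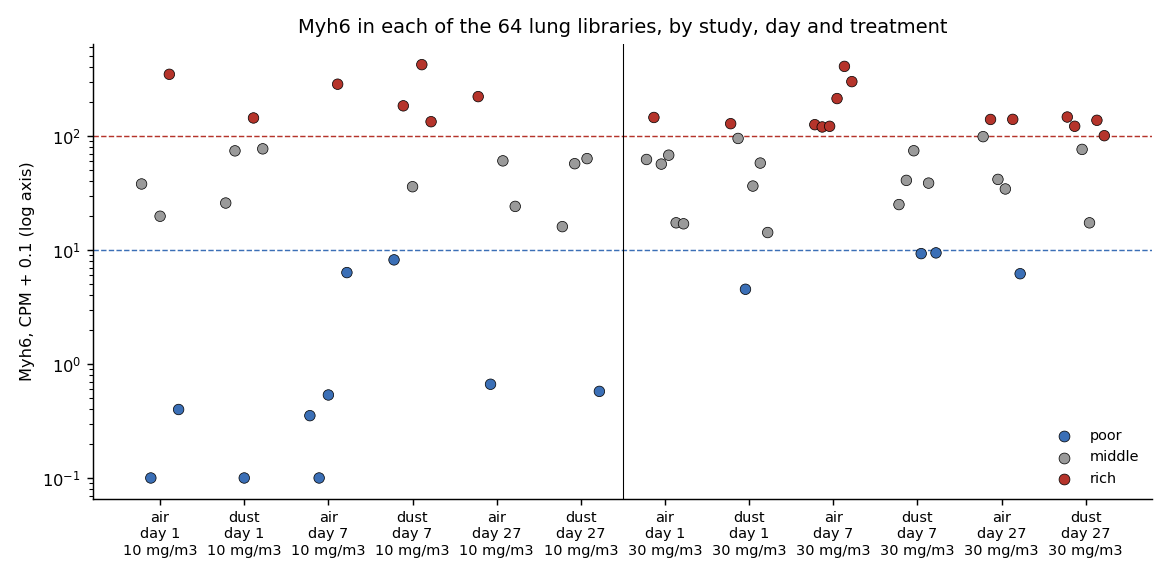
Myh6 in CPM plus 0.1, on a log axis, in each of the 64 libraries, placed by study, day and treatment, with dashed lines at the limits of 10 and 100 CPM. Poor libraries are blue, middle libraries grey and rich libraries red. Each point is 1 rat; only the air group of day 7 in the 30 mg/m3 study lies wholly above the upper limit.

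The other given markers of heart muscle were checked in each class. Tnnt2, the cardiac troponin T that anchors the troponin complex, ran from 0.652 to 4.60 CPM in the poor libraries and from 12.8 to 68.9 CPM in the rich, with no overlap. Myl7, the regulatory light chain of atrial myosin, ran from 0 to 10.7 CPM in the poor libraries (median 0.307 CPM) and from 0.789 to 244 CPM in the rich (median 65.2 CPM). In 20 of 21 rich libraries Myl7 lay above every poor library. The exception was air rat 68 of day 7 in the 30 mg/m3 study. It held 122 CPM of Myh6 and 31.4 CPM of Tnnt2 but 0.789 CPM of Myl7, so for this library Myl7 goes against the class, and results that rest on it are given with and without it. Skeletal muscle shares some of these transcripts. Of its genes, Myod1 had no count in any library, Myog reached 0.254 CPM, and the fast myosin Myh4 0.504 CPM, while Tnnt3, the fast troponin T, reached 8.14 CPM and Mybpc2 7.56 CPM. Over the 26 skeletal muscle genes listed, the summed level was 13.8 to 20.8 CPM in poor and 15.2 to 25.9 CPM in rich libraries, and of the 5 that could be tested 0 passed in either direction. Its part in the results was not tested.

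In the fit of rich against poor libraries over 15092 genes, 269 passed an adjusted p of 0.05 in edgeR's quasi-likelihood test (1.78% of genes), 214 of them higher (1.42%) and 55 lower (0.364%) in the rich. Of the 91 heart list genes that passed the filter on low counts, 55 were among the higher and 0 among the lower. That share is no evidence about the genes, because they follow the transcript that set the classes. In 33 genes every rich library lay above every poor library, and 29 of these are in the heart lists. Without air rat 68 there were 37 such genes, with Myl7, Myl4, Sln and Hamp added. No gene separated the classes in the lower direction.

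Among the motor proteins of the thick filament, 9 of 10 genes in the fit were among the higher calls, Myh6 itself included, with a median log2 fold change of 3.98 against -0.01 over all genes. Myl4, the essential light chain of atrial myosin, had 0.134 to 5.57 CPM in the poor and 1.69 to 122 CPM in the rich libraries, a log2 fold change of 5.27 ± 0.51 (SE). Mybpc3, cardiac myosin-binding protein C, had at most 2.26 CPM in the poor and at least 6.09 CPM in the rich libraries. Myom2, which crosslinks thick filaments at the M-band, had at most 3.79 CPM in the poor and at least 4.51 CPM in the rich libraries. The remaining gene, Myh7b, a slow-type myosin, had a log2 difference of 0.11 ± 0.18.

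The thin filament gave 4 of 7 tested genes among the higher calls. The 3 cardiac troponin genes did not overlap between classes. Tnni3, the inhibitory subunit, had 0.376 to 3.37 CPM in the poor and 12.4 to 67.0 CPM in the rich libraries. Tnnc1, the calcium-binding subunit, had 0.218 to 1.51 CPM and 4.17 to 34 CPM. The cardiac actin Actc1 was well expressed in every library, at 14.4 to 56.1 CPM in the poor and 64.8 to 260 CPM in the rich, with a log2 fold change of 1.74 ± 0.18. Tpm1, the tropomyosin shared with smooth muscle and other cells, had a median of 352 CPM in the poor and 370 CPM in the rich libraries.

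Of the titin and Z-disc genes, 12 of 18 were among the higher calls. Titin itself, the spring of the sarcomere, had 37 to 115 CPM in the poor libraries, so its transcript was not absent there, and 193 to 882 CPM in the rich. Csrp3 and Myoz2, which sit at the Z-disc, had medians of 0.047 and 0.106 CPM in the poor and 5.02 and 4.47 CPM in the rich libraries. Actn2, the alpha-actinin of striated muscle, had a log2 fold change of 5.23 ± 0.37. Nexn and Des, also used in smooth muscle, had log2 differences of 0.01 and 0.27.

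For calcium handling, 9 of 12 tested genes were among the higher calls. Ryr2, the release channel of the sarcoplasmic reticulum, had 1.88 to 6.01 CPM in the poor and 21.2 to 90.6 CPM in the rich libraries. Casq2, its luminal calcium buffer, had 0.536 to 2.83 CPM and 4.46 to 22.8 CPM. Atp2a2, the calcium pump also made in many other cells, had a log2 fold change of 0.55 ± 0.07. Slc8a1 and Cacna1c, which carry calcium across the surface membrane, had differences of -0.00 and 0.14.

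Energy supply genes of striated muscle gave 16 of 17 among the higher calls, with a median log2 fold change of 1.42. Mb, the oxygen store myoglobin, had 0 to 1.68 CPM in the poor and 4.75 to 106 CPM in the rich libraries. The creatine kinases Ckm and Ckmt2 had log2 fold changes of 4.94 ± 0.39 and 5.60 ± 0.47. The general machinery of respiration did not share these calls: of 33 nuclear genes of the respiratory chain 0 passed in either direction. Of 16 genes of fatty acid oxidation 1 passed, Cpt1b, the muscle form of the carnitine transferase.

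Ion channels and junction genes gave 3 of 13 higher calls, and transcription factors 1 of 9. Kcnj5, a potassium channel subunit of the atrium, had 5.26 to 10.8 CPM in the poor and 6.54 to 13.2 CPM in the rich libraries, which overlapped. Tbx20, a T-box factor of heart muscle, had 0 to 0.657 CPM and 1.13 to 12.6 CPM with no overlap. Other cardiac factors are made in lung cells too: Tbx5 had medians of 55.2 and 61.9 CPM, Mef2c of 88.2 and 85 CPM, and Gata4 of 1.96 and 1.88 CPM. Nkx2-5 reached at most 0.494 CPM in a rich library and was too low to test. The atrial hormone gene Nppa was likewise low, with a median of 0.162 CPM in the rich libraries and a highest value of 7.06 CPM in dust rat 47. Hand1, Lrrc10 and Bmp10 had 0 counts in all poor and in 20 of 21 rich libraries, and Lmod2 had none in any.

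**Figure D2:**
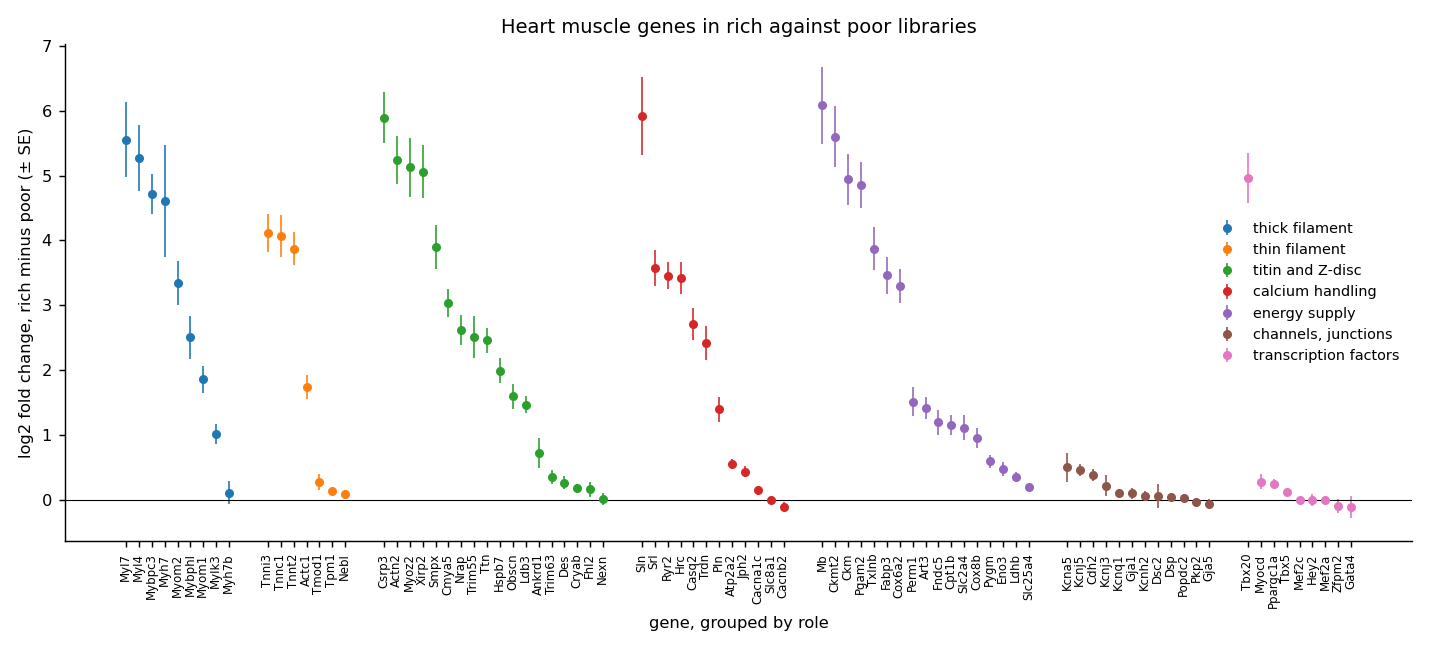
Log2 fold changes, rich minus poor, with SE, for heart list genes of 7 roles that passed the filter on low counts, with 2 genes, Myh6 among them, not shown. The highest shown are Myl7 (5.55) for the thick filament, Csrp3 (5.89) for titin and Z-disc, Sln (5.92) for calcium and Mb (6.08) for energy. The channel genes shown lie at 0.50 or less and the transcription factors near 0, Tbx20 (4.96) apart.

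The 250 bases before the annotated starts of heart list genes were read from RefSeq (build GRCr8), where 99 promoter entries matched, both of genes that differed between the classes and of genes that did not pass. Searched on both strands were the MEF2 site, bound by the MEF2 factors of muscle, the CArG box of serum response factor, GATAA for GATA factors and GGAATG for the MCAT element. The MEF2 site was found in 13.1% of the heart list entries and in 2.96% of all 33469 entries. The CArG box was found in 5.05% against 1.5%, GATAA in 29.3% against 23.5% and GGAATG in 17.2% against 12.1%. These are descriptions of letters, not of binding, and were not tested. The first 3 sequences below hold a MEF2 site and belong to genes without overlap between the classes. The last 2 are the atrial and the ventricular light chain, which parted in some libraries. All are 5′ to 3′ on the gene's strand, with the matches in capitals.
Mybpc3, chr3:97550811-97551060, plus strand: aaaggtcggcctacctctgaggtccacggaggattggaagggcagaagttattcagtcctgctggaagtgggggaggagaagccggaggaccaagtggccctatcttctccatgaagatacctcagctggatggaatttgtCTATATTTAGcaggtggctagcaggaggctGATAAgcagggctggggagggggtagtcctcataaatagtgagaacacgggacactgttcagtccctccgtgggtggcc
Myoz2, chr2:213852779-213853028, minus strand: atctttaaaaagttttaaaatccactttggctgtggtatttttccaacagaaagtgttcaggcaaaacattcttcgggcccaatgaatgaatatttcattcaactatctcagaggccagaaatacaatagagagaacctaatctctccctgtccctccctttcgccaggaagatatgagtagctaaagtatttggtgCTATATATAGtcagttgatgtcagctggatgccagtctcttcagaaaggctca
Casq2, chr2:192214306-192214555, plus strand: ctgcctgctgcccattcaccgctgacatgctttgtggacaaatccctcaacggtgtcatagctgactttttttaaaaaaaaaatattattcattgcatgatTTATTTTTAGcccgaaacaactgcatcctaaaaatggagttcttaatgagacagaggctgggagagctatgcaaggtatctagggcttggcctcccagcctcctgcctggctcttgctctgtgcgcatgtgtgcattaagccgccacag
Myl7, chr14:84996625-84996874, minus strand: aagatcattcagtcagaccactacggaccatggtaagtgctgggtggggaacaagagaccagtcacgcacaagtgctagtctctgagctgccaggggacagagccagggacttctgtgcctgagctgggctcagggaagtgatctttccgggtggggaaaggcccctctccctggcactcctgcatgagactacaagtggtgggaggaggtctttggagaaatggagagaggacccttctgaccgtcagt
Myl3, chr8:119616844-119617093, plus strand: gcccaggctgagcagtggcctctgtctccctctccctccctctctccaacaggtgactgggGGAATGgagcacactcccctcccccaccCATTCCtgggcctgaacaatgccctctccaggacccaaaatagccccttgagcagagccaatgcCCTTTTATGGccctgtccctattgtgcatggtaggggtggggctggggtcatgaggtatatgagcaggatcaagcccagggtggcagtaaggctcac
In Mybpc3 the capitals mark a MEF2 site and then GATAA, and in Myoz2 and Casq2 a MEF2 site. In Myl3 they mark GGAATG, its reverse complement and a CArG box. In Myl7 none of the 4 motifs was found in this window.

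Heart muscle transcripts were not of a single kind in the rich libraries. Atrial muscle uses the light chains Myl7 and Myl4 and the calcium pump regulator Sln, while adult ventricular muscle uses Myl2, Myl3 and, in slower fibres, the heavy chain Myh7. In the 7 rich libraries of the 10 mg/m3 study, Myl7 ran from 38.7 to 244 CPM and Myl3 from 0 to 0.162 CPM. There, Myl2 reached 0.405 CPM and Myh7 4.46 CPM, so ventricular light chains were at or near 0. In the 14 rich libraries of the 30 mg/m3 study, Myl3 ran from 0.111 to 49.1 CPM with a median of 5.54 CPM, Myl2 from 0 to 11.4 CPM and Myh7 from 1.45 to 58.5 CPM. Over all classes, Myl3 was at 1 CPM or more in 0 of 28 libraries of the 10 mg/m3 study and in 19 of 36 of the 30 mg/m3 study. These 19 were 11 rich, 7 middle and 1 poor library. Among air rats alone it was in 0 of 14 libraries of the 10 mg/m3 study and in 13 of 18 of the 30 mg/m3 study. Myl2 and Myl3 did not pass the filter on low counts in the fit of rich against poor libraries, and the difference between studies was not tested.

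Counts were also set against the Myh6 count of the same library. Per 100 counts of Myh6, Myl7 had 0.649 to 70.3 counts over the 21 rich libraries and 15.4 to 70.3 without air rat 68. Myl3 had 0 to 40.4 per 100, and 0 to 22.9 without that library. Mb ran from 3.56 to 87 per 100 and Myh7 from 0 to 46.5, and without it up to 43.7 and 31.4. Tnnt2 had 10.9 to 25.8 and Ttn 133 to 280 per 100. Myh6 and Myh7 lie side by side and are near-identical in sequence, so reads can be lost or swapped between them and their values are uncertain for that reason.

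Air rat 68 had the highest Myl3 (49.1 CPM) and Mb (106 CPM) of all libraries and 56.5 CPM of Myh7, with 1.69 CPM of Myl4 and 0.113 CPM of Sln, both within the range of the poor libraries. Dust rats 61 and 62 of day 1 in the same study, both of the middle class, resembled it: Myl7 was 1.27 and 0.372 CPM and Myh7 34.6 and 5.33 CPM. Air rat 51, a rich library of day 1, carried both kinds, with 22.3 CPM of Myl7 and 33.3 CPM of Myl3. This library and air rat 53 of the same group also stood apart in having 21889 and 22077 genes with a count. No other library had more than 19731. Air rat 53, of the middle class, was not in the fit of rich against poor libraries, and 296 genes passed without air rat 51. Leaving out air rat 68 moved the log2 fold change of Myl7 from 5.55 to 5.63 and that of Myh7 from 4.61 to 4.45, and 284 genes passed. Without the libraries at 1 CPM or more of Myl3, 10 rich and 13 poor libraries remained and 201 genes passed. When the 21 highest and 14 lowest libraries were chosen by Myl7 instead, Myh7 turned to a log2 difference of -0.14. These 3 settings were chosen after seeing the data.

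**Figure D3:**
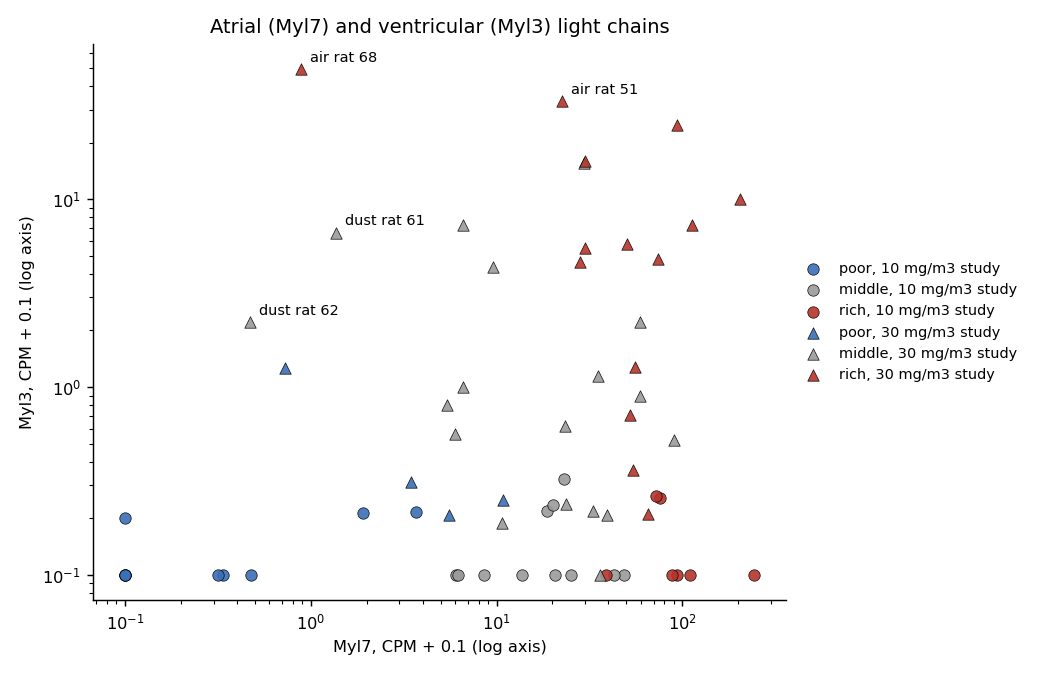
Myl7 against Myl3, in CPM plus 0.1 on log axes, with 1 point per library. Circles are the 10 mg/m3 study and triangles the 30 mg/m3 study, and colours give the class by Myh6. Circles stay at the bottom, at 0.224 CPM of Myl3 or less, while triangles reach 49.1 CPM, and air rat 68 stands at high Myl3 and low Myl7.

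Outside the heart and skeletal muscle lists, 214 of 14996 genes passed, 159 higher and 55 lower in the rich libraries. Some of the largest rises were genes with known work in striated muscle that the lists had not held. These, and the iron genes after them, were low in the poor libraries and passed the filter on low counts through the rich, so they are described without p-values. Eef1a2, the form of elongation factor 1 alpha used in muscle and neurons, had 0 to 0.452 CPM in the poor and 2.30 to 8.80 CPM in the rich libraries, with no overlap. Its log2 fold change was 4.79 ± 0.29 (SE). Unc45b, a chaperone for myosin, rose by 3.00 ± 0.31, and the unconventional myosin Myo18b by 2.14, Klhl41, a sarcomere-linked Kelch protein, by 1.87 and Trim54, a ubiquitin ligase of muscle, by 1.61 on the log2 scale. Levels in the middle libraries lay between, with log2 differences from the poor of 2.69 for Eef1a2 and 1.59 for Unc45b.

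A pair of iron genes was among the 4 largest rises outside the muscle lists, counting genes with a mean of at least 1 CPM. Hfe2, which encodes hemojuvelin, a co-receptor that drives hepcidin, had 0 to 0.328 CPM in the poor and 1.14 to 7.23 CPM in the rich libraries. No rich library fell in the poor range, and the log2 fold change was 5.08 ± 0.38 (SE). Hamp, the iron hormone hepcidin itself, had 0 to 0.463 CPM in the poor libraries and 0.338 to 7.70 CPM in the rich, with 20 of 21 rich libraries above all poor. The exception was air rat 68, at 0.338 CPM. The log2 fold change of Hamp was 4.08 ± 0.38. Liver is the main source of hepcidin in the body. Of 10 liver plasma protein genes tested 0 passed and 8 lay above 0. The summed level of the list ran from 274 to 562 CPM in the poor and from 242 to 961 CPM in the rich libraries. Alb ran from 8.76 to 135 CPM in the poor and from 10.3 to 368 CPM in the rich libraries. Over all genes, 261 passed with the level of Alb added to the fit. Without the libraries above 100 CPM of Alb, 282 passed. The part of liver transcripts in the results was not otherwise tested.

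Secretory genes of the conducting airway were also higher in the rich libraries, in 5 of 8 tested members with 0 lower, and a median log2 fold change of 1.62. Scgb3a1, a secretoglobin of large airways, had 0.454 to 6.64 CPM in the poor libraries (median 2.17 CPM) and 1.35 to 142 CPM in the rich (median 21 CPM). In 17 of 21 rich libraries it lay above all poor, and the log2 fold change was 4.09 ± 0.54 (SE). Some poor libraries had fewer than 10 counts of Scgb3a1, and it passed the filter on low counts partly through the rich. It is therefore described without a p-value, and its call among the 5 is not read as a test. Muc5b, the gel-forming mucin of the airway, had 4.22 to 14.3 CPM and 7.90 to 84.3 CPM, a rise of 2.06 ± 0.34 (edgeR adjusted p = 0.000188). Bpifb1, a secreted defence protein, rose by 2.14 and Cyp2f4, a cytochrome P450 of club cells, by 1.18 on the log2 scale. Bpifa1, another secreted defence protein, rose by 3.57 ± 0.79, though only 7 of 21 rich libraries lay above all poor. Its median in the poor libraries was 0.244 CPM, and it passed the filter on low counts largely through the rich. Bpifa1 is therefore described without a p-value, and its call among the 5 is not read as a test. That call was lost with the 12 groups as covariates. Outside the list, Gp2 and Cyp2a3, a rat cytochrome P450 of airway, rose by 3.20 and 2.11. Scgb1a1, the club cell protein, had medians of 2073 CPM in the poor and 2451 CPM in the rich libraries and did not pass.

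Heart and airway transcripts did not move together in every library. Dust rat 90 and air rat 85, with 122 and 140 CPM of Myh6, had 2.45 and 6.47 CPM of Scgb3a1, within the poor range. Air rat 68 had 1.35 CPM, the lowest of the rich. Ciliated cell genes gave 3 of 12 higher and 0 lower, and their median log2 fold change was 0.61 at 10 mg/m3 and 0.03 at 30 mg/m3. Hydin, part of the ciliary axoneme, rose by 0.46 ± 0.09 (edgeR adjusted p = 0.00279). The other 2, Spag6 and Tekt1, were close to the threshold at adjusted p of 0.0454 and 0.0496 by edgeR, and lost the call in 22 and 26 of the 35 fits that left out 1 library.

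Mesothelial genes moved the other way, with 7 of 8 tested members lower and 0 higher in the rich libraries and a median log2 fold change of -0.99. Upk3b, a uroplakin made in mesothelium, had 8.79 to 35.3 CPM in the poor (median 19 CPM) and 1.10 to 19.96 CPM in the rich libraries (median 9.43 CPM). The classes overlapped, with 10 of 21 rich libraries below all poor, and the log2 fold change was -1.26 ± 0.24 (SE; edgeR adjusted p = 0.0013). Msln, the surface protein mesothelin, fell by 0.79 ± 0.17 (edgeR adjusted p = 0.00798), and Gpm6a, a membrane glycoprotein, by 0.87 ± 0.13 (edgeR adjusted p = 1.54e-05). Wt1, the Wilms tumour factor of mesothelium, fell by 1.20, Upk1b by 1.33, Lrrn4 by 1.11 and Rspo1, a secreted Wnt enhancer, by 0.61. Krt19, shared with airway epithelium, was the member that did not pass, at -0.17. Among the 15 largest falls outside the lists were also the surface mucin Muc16 at -1.09, the T-box factor Tbx18 at -0.95 and the sulfotransferase Chst4 at -1.43. In the middle libraries 4 of 8 mesothelial genes were below the poor by edgeR's test. Over all 15480 genes of that comparison 61 passed (0.394%), 46 higher (0.297%) and 15 lower (0.0969%) in the middle libraries. Of the 61, 57 passed in the same direction in the rich. Both comparisons share the same poor libraries and classes cut by Myh6, so this overlap is not separate support.

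**Figure D4:**
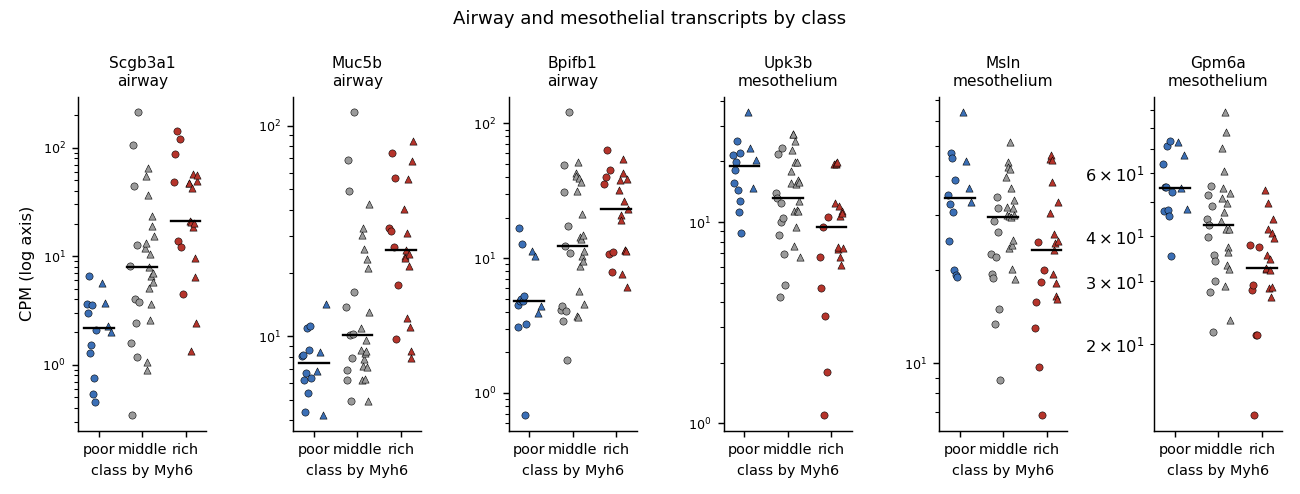
Levels in CPM, on log axes, of 3 airway and 3 mesothelial genes in poor, middle and rich libraries. Circles are the 10 mg/m3 study, triangles the 30 mg/m3 study, and bars the median of each class. Median Scgb3a1 is 2.17 CPM in poor and 21 CPM in rich libraries, and median Upk3b 19 and 9.43 CPM.

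Connective tissue around vessels and airways changed in a few members. Pi16, a marker of adventitial fibroblasts, rose by 0.80 ± 0.14 (edgeR adjusted p = 0.000289), with 16.8 to 45.7 CPM in the poor and 33.4 to 99.8 CPM in the rich libraries. Dcn, the matrix proteoglycan decorin, rose by 0.64 and was the only other one of 11 adventitial genes to pass. Its call was lost without air rat 20 (edgeR adjusted p = 0.0685), with the 12 groups as covariates (edgeR adjusted p = 0.239), and within either study or either treatment alone. Plin4, a lipid droplet coat protein, rose by 0.79, the only call among 6 fat cell genes. Stmn2, a neuronal tubulin regulator, fell by 0.95, while the only other neuronal gene tested, Prph, had -0.55 and did not pass.

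Most cell types of the lung showed 0 calls. This held for the 13 alveolar type 1 and 14 alveolar type 2 genes, for 8 vein, 8 artery, 10 capillary and 6 lymphatic endothelial genes, and for the 10 pericyte genes. It also held for the lists of alveolar macrophages, neutrophils, T cells, B cells, mast cells and red cells. Sftpc, the surfactant protein of type 2 cells, had a log2 difference of -0.19 ± 0.06 (edgeR adjusted p = 0.173), and Vwf, enriched in vein endothelium, of 0.09 ± 0.08. Of 14 smooth muscle genes only Actc1 passed, which is also in the heart lists. Acta2, smooth muscle actin, had medians of 96.8 and 98.3 CPM.

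The direction of the largest differences was the same in both studies. For Scgb3a1 the log2 fold change was 4.61 at 10 mg/m3 and 3.19 at 30 mg/m3, for Muc5b 2.22 and 1.83, for Upk3b -1.64 and -0.83 and for Wt1 -1.79 and -0.67. A test of the difference between studies called 0 of 15092 genes in edgeR, with 585 at an unadjusted p under 0.05, and 0 in limma voom, with 621. Fitted alone, the 30 mg/m3 study had only 4 poor libraries and called 45 genes, all higher. Of 37 genes named here from outside the heart lists that passed, 5 passed there: Hfe2, Eef1a2, Hamp, Unc45b and Myo18b. These 5 are among the genes described above without p-values, so their calls there are not read as a test. No airway or mesothelial gene of the 37 passed there, and the difference between these kinds of gene was not tested. In dust libraries alone 60 genes passed, and in air libraries alone 253. Of the 37 named genes 25 lost their call in dust libraries alone, and 11 in air libraries alone. Among the 25 were Scgb3a1, Muc5b (edgeR adjusted p = 0.603) and Upk3b (edgeR adjusted p = 0.154).

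**Figure D5:**
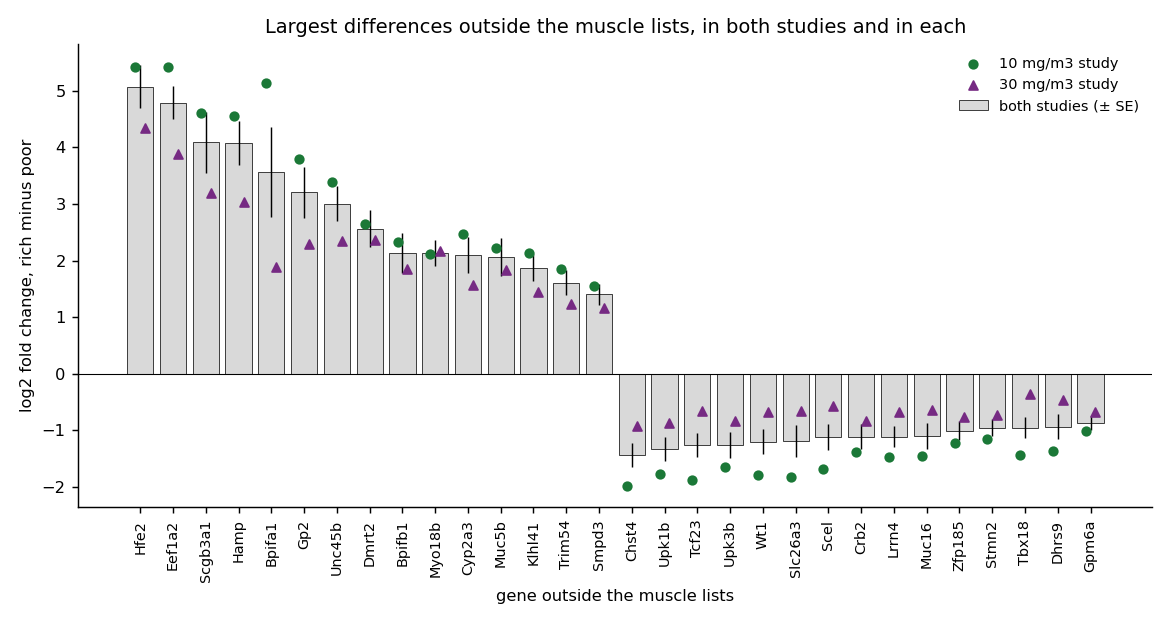
Log2 fold changes, rich minus poor, of the 15 largest rises and 15 largest falls outside the muscle lists. Bars with SE are both studies together, circles the 10 mg/m3 study and triangles the 30 mg/m3 study. All 30 genes keep their direction in both studies, and the bars run from 5.08 for Hfe2 to -1.43 for Chst4.

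Library totals ran from 6640183 to 10637687 counts in the poor and from 5090599 to 12359518 in the rich libraries. The share of counts on the mitochondrial ribosomal RNA genes had a median of 0.845% in the poor and 0.881% in the rich libraries. Within study and day it was 0.582 percentage points higher in the rich, which did not pass a two-sided permutation test (p = 0.0747, 100000 resamples). Adding this share to the fit left 217 genes. Its part in the results was not otherwise tested.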

How the data were processed

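Values are whole read counts for each gene symbol as the authors deposited them, 1 column per library, with no normalisation. The submitters' processing notes name HISAT2 2.1.0 and HTSeq 0.6.1, Trimmomatic 0.35 and build Rnor_6.0. Annotation and strand setting of the counting are not stated there, and genes that overlap or lie antisense to another are uncertain. Both tables hold 30045 symbols. Levels are CPM by library total.

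Rich and poor libraries were compared in R 4.3.3 with edgeR 4.0.16 (TMM factors, filterByExpr with a minimum count of 10, robust quasi-likelihood F test, Benjamini-Hochberg adjustment at 0.05), with study, day and class as terms. A term for class by study tested the difference between studies, and a fit with 3 classes compared middle with poor. Fits were tested on simulated data. Alternatives used DESeq2 1.42.0, limma 3.58.1 and other limits, covariates and sets of libraries. P-values measure the spread between these libraries. No library was a copy of another in its group: the lowest chi-square of a pair, divided by its degrees of freedom, was 2.14.

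The members and the 42 gene lists were chosen with earlier results of these data known. Named are up to 6 genes of each heart list by level, with further members as examples, the 15 largest rises and falls outside the muscle lists (mean of at least 1 CPM) and up to 4 genes of each other list by p. Msln, Rspo1, Krt19, Scgb1a1, Fsd2 and the genes of the closing section fall outside this rule and were chosen after their values were seen. Counts of members in other lists were made in the same fit. Promoters are from RefSeq (GRCr8), another build than the counts. Some results are not reported here.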

Additional observations from a re-analysis of the deposited data

Results flagged for a closer look

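In each of the 12 groups of 4 to 6 libraries, the highest and lowest values of Myh6, Myl7, Tnnt2 and Myl3 were compared with the rest by Dixon's gap ratio, 48 checks in all. About 1 in 20 groups would be singled out by chance if values were normal and the checks independent. Neither holds here, as Myh6, Myl7 and Tnnt2 move together, so the number of flags is not a test. The highest library of a group was flagged 9 times. Air rat 20 of day 1 in the 10 mg/m3 study had 348 CPM of Myh6, where the next of its 5 rats had 37.8 CPM, 244 CPM of Myl7 (next 20.6 CPM) and 68.9 CPM of Tnnt2 (next 5.30 CPM). Air rat 37 of day 7 in that study had 285 CPM of Myh6 (next 6.24 CPM), 75.8 CPM of Myl7 (next 1.81 CPM) and 31 CPM of Tnnt2 (next 1.93 CPM). For Myl3 the values were close to the level of 1 count: 0.0996 CPM in air rat 21, 0.224 CPM in air rat 5 and 0.119 CPM in dust rat 14. Each was in a group whose other libraries were at 0, where any count above 0 is flagged.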

How the results depend on the processing

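The count of 269 genes was 683 with rich at 50 CPM or more and poor under 20 CPM, 583 with Myh6 as a continuous term over all libraries, 60 in dust libraries alone and 45 in the 30 mg/m3 study alone. With classes taken from Myl7, chosen after seeing the data, it was 681, and Myh7 had a log2 difference of -0.14. Leaving out 1 library at a time gave 187 to 357 genes. The remaining settings gave 201 to 361, among them 333 by DESeq2 and 255 by limma voom. The difference between studies stayed at 0 calls, and the mitochondrial ribosomal RNA share did not pass under either alternative. Of the 37 genes named from outside the heart lists that passed, 0 reversed direction and 33 kept their call whichever library was left out. Only 4 passed under every other setting. These were Hfe2, Eef1a2, Hamp and Unc45b, which are described above without p-values. Of the 37 genes, 25 lost the call in dust libraries alone, 11 in air libraries alone and 32 in the 30 mg/m3 study alone. The exceptions to the 33 were Dcn, Slc26a3 (adjusted p = 0.0638 by edgeR without dust rat 79), Spag6 and Tekt1. No paired analysis was possible because the groups share no replicate numbers. Myl2 and Myl3 did not pass the filter on low counts in the fit of rich against poor libraries.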

Other observations

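Further single genes among the calls are given here as values. They were picked after their values were seen, so they say nothing of gene groups. The T-type calcium channel gene Cacna1g was higher in the rich libraries by 0.95, the potassium channel subunit Kcng2 by 1.34 and the muscarinic receptor Chrm2, which slows the atrium, by 0.67 on the log2 scale. Fsd2, a muscle protein with no overlap between the classes, was higher by 4.34. The axonemal dynein genes Dnah9, Dnah10 and Dnah2 were at 0.38, 0.36 and 0.46. Sox2, an airway epithelial factor, was at 0.46. The interferon-induced genes Mx2 and Isg15 were at -0.43 and -0.39. Aldh1a2, an enzyme of retinoic acid synthesis, was at -0.58 and Cldn15, a tight junction protein, at -0.59.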
